A study of Mus musculus with 2 samples.

Results

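The genes described here are 9 interferon-stimulated genes, Isg15, Ifit1, Ifit2, Ifit3, Irf7, Oasl2, Usp18, Rsad2 and Bst2, among the 28692 genes counted in leukocytes of mouse visceral adipose tissue. They were taken by symbol from a named list, and their unique molecular identifiers (UMIs, 1 per captured RNA molecule) were summed in each of 13 deposited cell clusters and each library. Wild-type adult C57BL/6 mice were given chow or a ketogenic diet, which is very low in carbohydrate, for 1 week. In both groups, cells were CD45+ (the surface mark of leukocytes), and label injected into a vein separated tissue-resident cells from those in blood. How many mice each library came from is not stated in the labels. The diet effect rests on 1 library each: there is no replicate, no test and no p-value, and the intervals given are exact 95% Poisson, binomial or conditional intervals that cover counting error only. For a count of 0 the limit given is that of 3 counts.

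Interferons are secreted proteins that infected or stressed cells use to warn their neighbours. Type I interferons bind the receptor made of Ifnar1 and Ifnar2, whose kinases pass the signal to transcription factors in the nucleus; these bind interferon-stimulated response elements and switch on a broad set of antiviral genes. Macrophages and dendritic cells are well known for strong responses, and plasmacytoid dendritic cells for making interferon and for high Irf7 and Bst2 before any stimulus.

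The chow library held 4458 clustered cells with a median of 3550 UMIs, and the ketogenic library 5559 with a median of 3467. The libraries shared 41 barcodes, which held 30 of 2617 chow UMIs and 18 of 3531 ketogenic UMIs of the 8 genes other than Bst2. By marker genes, cluster 0 was ILC2-like, 1 NK-like, 2 T-like, 3 macrophage-like, 5 cDC2-like with plasmacytoid markers, 6 cDC1-like, 7 Treg-like, 9 B and plasma cell-like, 10 cycling, 11 γδ T-like and 12 mature dendritic cell-like, whereas clusters 4 and 8 stayed unnamed. Cluster 3 raised 8 of 10 macrophage markers but also 6 of 7 monocyte and 3 of 5 neutrophil markers, and its size differed between libraries, with 859 chow and 145 ketogenic cells.

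The stretches of promoter that carry the motif are shown because they are where the shared induction of these genes is known to be read. The core of the interferon-stimulated response element, GAAANNGAA, was searched on both strands in the 250 bases before the RefSeq start (GRCm38.p6), overlapping matches counted. It occurred in 5 of the 8 genes with a promoter entry, against 8.18% of 27025 symbols; Usp18 was not matched. Matches are in capitals, on the strand of the gene, and TTC then NN then TTTC is the motif on the opposite strand.
Isg15, chr4:156200866-156200906, minus strand: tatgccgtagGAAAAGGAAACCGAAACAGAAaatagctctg
Bst2, chr8:71537578-71537612, minus strand: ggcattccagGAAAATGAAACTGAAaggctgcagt
Rsad2, chr12:26456553-26456581, minus strand: tggtccaactTTCATTTTCagaaaacaga
Ifit3, chr19:34583364-34583445, plus strand: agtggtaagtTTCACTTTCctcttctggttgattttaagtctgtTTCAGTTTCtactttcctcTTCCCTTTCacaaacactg
Ifit1, chr19:34640770-34640823, plus strand: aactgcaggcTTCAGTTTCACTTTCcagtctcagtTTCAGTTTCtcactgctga
Isg15, Ifit3 and Ifit1 held 3 matches each, Bst2 2 and Rsad2 1. In Isg15 and Bst2 the matches overlapped in tandem, and in Ifit1 2 of the 3 did. These letters were not found in the windows of Oasl2, Irf7 and Ifit2. The first 50 bases after the RefSeq start were found in a GENCODE transcript for Isg15, Rsad2, Ifit1 and an Ifit2 window. They were not for Oasl2, Irf7, Bst2, Ifit3 and the other Ifit2 window, whose starts may thus differ between the annotations. Of all 32851 windows, 0.469% held 2 or more matches. Ifit1, Ifit2 and Ifit3 lie in 1 stretch of chromosome 19.

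In the macrophage-like cluster the summed level of the 8 genes other than Bst2 was 187 CPM (the count in 1000000 UMIs; interval 175 to 199) in the chow library and 577 CPM (528 to 629) in the ketogenic one, a ratio of 3.09 (2.77 to 3.44). Among the ketogenic clusters this was the top level, and its interval did not overlap that of the next, the T-like cluster at 212 CPM. Under chow the macrophage-like cluster and the mature dendritic cell-like cluster, at 195 CPM, could not be told apart. In the latter 1 chow cell held 44 of the 76 UMIs, and without the 5 richest cells of each cluster the chow levels were 135 CPM (macrophage-like) and 48.6 CPM. The lowest levels lay in the B and plasma cell-like cluster, 22.7 CPM with chow and 36.4 CPM with the ketogenic diet. The median cell of cluster 3 held 5543 UMIs under chow and 5589 under the ketogenic diet.

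**Figure D1:**
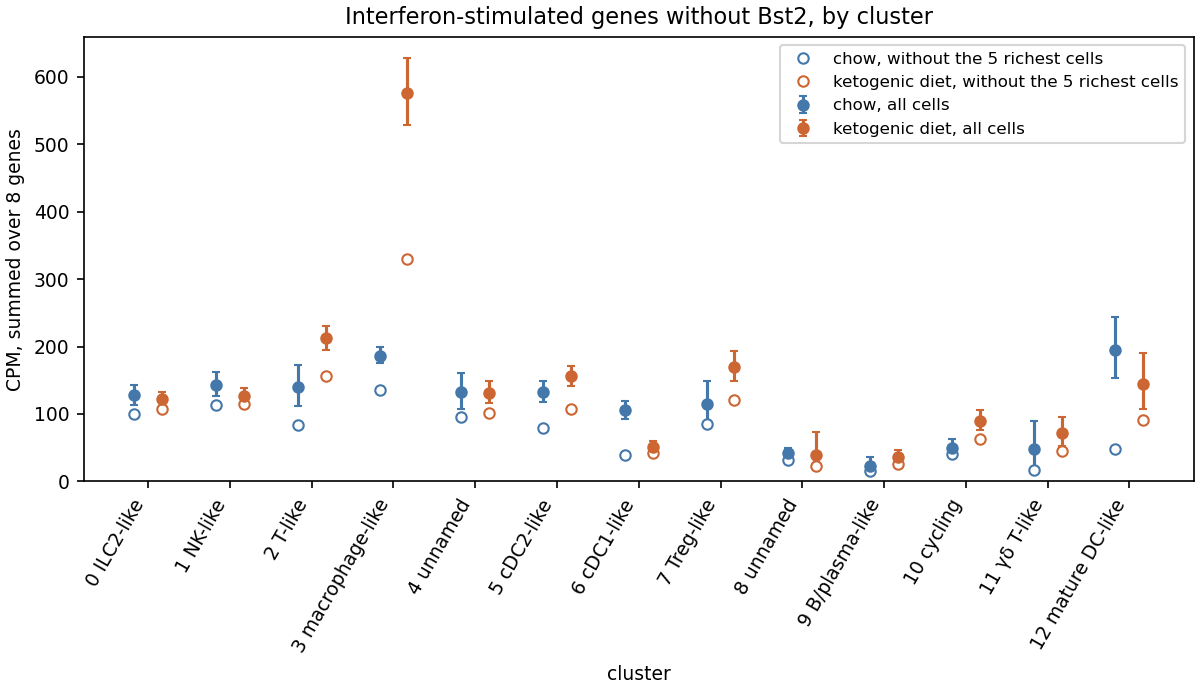
CPM summed over the 8 genes other than Bst2 (vertical axis) in each cluster (horizontal axis) of the chow and ketogenic libraries; bars are 95% Poisson intervals, and open points leave out the 5 cells with the most UMIs. The ketogenic macrophage-like cluster stands highest at 577 CPM, and the chow and ketogenic points of cluster 6 come close when the 5 richest cells are left out.

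Calls were read by 1 rule, a CPM ratio of at least 2-fold with at least 50 UMIs over both libraries. Of 117 pairs of gene and cluster, 39 reached that minimum, and 6 were higher and 1 lower under the ketogenic diet. In the macrophage-like cluster 5 of the 7 genes at the minimum were higher, against 3.19% of 6840 genes, and 0 were lower, against 4.53%. Without the 5 cells of each library richest in the gene 2 were higher, Irf7 and Oasl2. The median log2 ratio of the 7 genes was 1.46, and that of all genes tested there was 0.04. Isg15 was lower in the cDC1-like cluster (1 of 4 genes, against 1.21% of all genes) and higher in the cycling cluster (1 of 2, against 5.1%). In the other 10 clusters 0 genes passed the fold, where the share of all genes called in 1 direction ran from 1.15% to 18.5%.

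**Figure D2:**
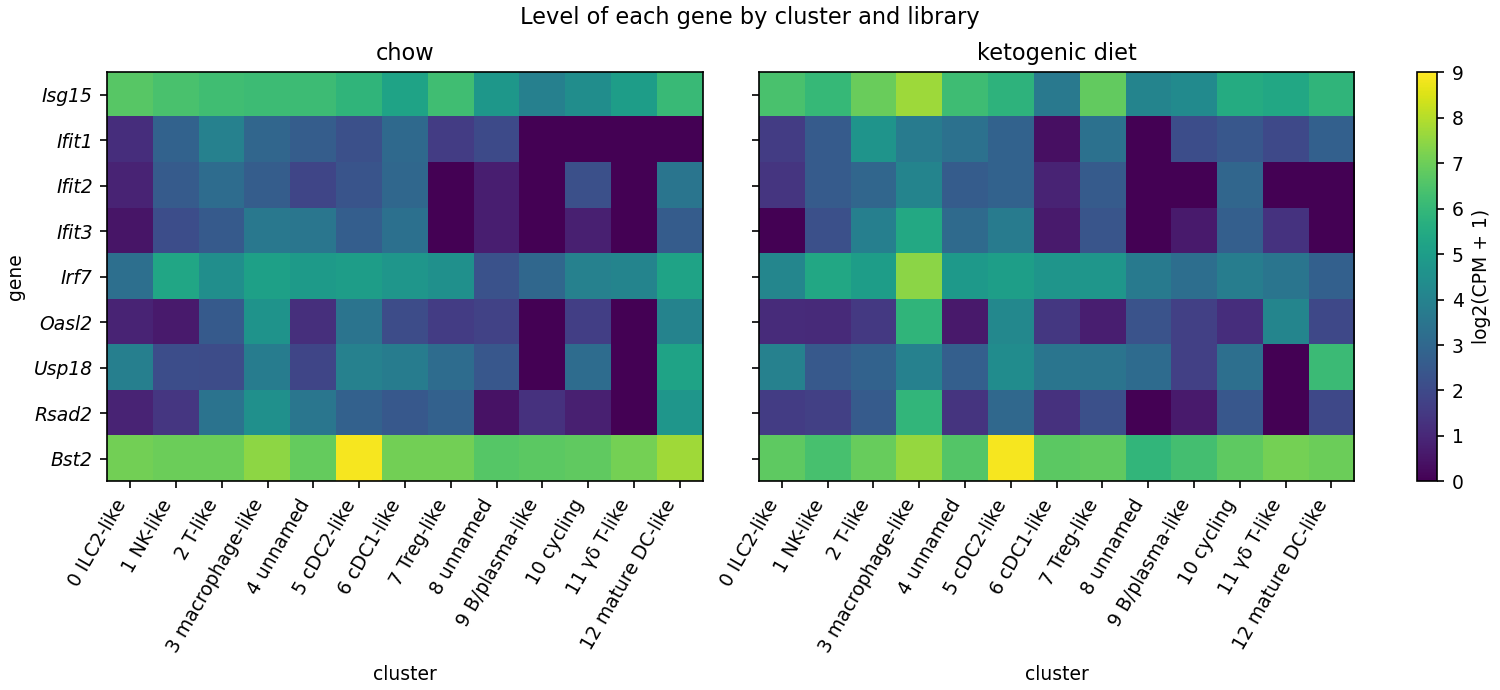
Level of each of the 9 genes, as log2(CPM + 1) by colour, in each cluster (columns) of the chow library (left) and the ketogenic library (right). Bst2 is detected in every cluster and is brightest in cluster 5, while the ketogenic macrophage-like cluster is bright for Isg15, Irf7, Oasl2 and Rsad2.

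Among the regulators, Irf7 is the transcription factor that amplifies type I interferon production. It had 172 UMIs in chow cells of the macrophage-like cluster, 33.9 CPM (29.0 to 39.3), and 152 in ketogenic cells, 170 CPM (144 to 200), a ratio of 5.02 (4.01 to 6.29). That was the largest ratio of any called pair. In the ketogenic library 5 cells held 53.9% of these UMIs, and without the 5 richest cells of each library the ratio was 3.27 (2.41 to 4.42). In the ILC2-like cluster Irf7 held 8.83 CPM (chow) and 16.5 CPM (ketogenic), a ratio of 1.87 (1.14 to 3.20), and 2.21 (1.24 to 4.19) without the 5 cells of each library richest in it. In the mature dendritic cell-like cluster the levels were 35.9 and 5.78 CPM, a ratio of 0.161 (0.018 to 0.700), but 1 chow cell held 13 of the 14 chow UMIs, and both libraries were at 0 UMIs without their 5 richest cells. Over all cells the other clusters had intervals of the ratio that spanned 1, among them the NK-like cluster at 39.5 and 40.6 CPM and the cDC1-like cluster at 25.8 and 25.0 CPM. Without the 5 richest cells the ratio was 1.65 (1.04 to 2.70) in the cDC1-like cluster and 3.35 (1.38 to 10.6) in the T-like cluster, where 5 chow UMIs were left. Under chow every cluster in the order of Irf7, led by the NK-like cluster, overlapped with the next, while under the ketogenic diet the macrophage-like cluster stood apart.

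Usp18 removes ISG15 from proteins and dampens signalling at the type I receptor. Unlike the other 7 genes without Bst2, it was highest in the mature dendritic cell-like cluster in both libraries, at 35.9 CPM (14 UMIs) with chow and 69.4 CPM (24 UMIs) with the ketogenic diet. Its order in that cluster overlapped with the next cluster under chow and not under the ketogenic diet. The difference between the diets there spanned no change, with a ratio of 1.93 (0.959 to 4.04). In the macrophage-like cluster it held 12.8 and 14.6 CPM, a ratio of 1.14 (0.575 to 2.08), which turned to 0.527 (0.138 to 1.45) without the 5 cells of each library richest in it.

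Isg15 encodes the ubiquitin-like protein that is attached to newly made proteins during the response. It was the most widely detected of the 8 genes, with UMIs in 14.6% of chow and 17.6% of ketogenic cells. Its level in the macrophage-like cluster was 71.5 CPM (64.3 to 79.2) with chow and 204 CPM (175 to 236) with the ketogenic diet, a ratio of 2.85 (2.37 to 3.42). Without the 5 cells of each library richest in Isg15 that ratio was 1.98 (1.55 to 2.49), which is under the 2-fold of the call. Under chow its highest level was in the ILC2-like cluster, at 101 CPM (88.5 to 114.5), where the ketogenic library held 83.7 CPM, but the chow interval overlapped that of the NK-like cluster, at 84.0 CPM. In the chow ILC2-like cluster 1 cell held 27 of the 240 UMIs, and the level was 74.4 CPM without the 5 richest cells. It was also higher in the cycling cluster, at 20.3 against 45.2 CPM, a ratio of 2.22 (1.42 to 3.57) that was 2.67 (1.52 to 4.92) when the 5 richest cells of each library were left out. In T-like cells it held 74.0 and 123 CPM, a ratio of 1.66 (1.22 to 2.31).

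IFIT proteins act in complexes that bind foreign RNA. Ifit3 had 56 UMIs, 11.03 CPM (8.33 to 14.3), in chow cells of the macrophage-like cluster and 38 UMIs, 42.5 CPM (30.1 to 58.4), in ketogenic cells, a ratio of 3.86 (2.49 to 5.93). Without the 5 cells of each library richest in it 21 and 13 UMIs were left, under the minimum of 50 for a call, with a ratio of 3.70 (1.70 to 7.74). Of its 50-base stretches, 51.2% also occur in Ifit3b, so reads of the pair may have been dropped or split in the authors' counting and its level is uncertain. Ifit1 and Ifit2 did not reach 50 UMIs in that cluster: Ifit1 had 35 and 11 UMIs and Ifit2 27 and 14, with ratios of 1.79 (0.819 to 3.60) and 2.95 (1.43 to 5.82). Without the 5 richest cells 5 and 0 UMIs were left for Ifit1 and 8 and 1 for Ifit2, whose ratio turned to 0.749 (0.017 to 5.59). The highest Ifit1 level was that of T-like cells in both libraries, at 14.5 CPM (6.62 to 27.5) and 24.0 CPM (18.6 to 30.5), but in each the interval overlapped that of the next cluster. That T-like level came from 3 chow cells with 9 UMIs and 24 ketogenic cells with 67.

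Oasl2, of the family of oligoadenylate synthetases that sense double-stranded RNA, had its highest level in the macrophage-like cluster in both libraries: 23.6 CPM (19.6 to 28.3) with chow and 58.2 CPM (43.5 to 76.4) with the ketogenic diet, a ratio of 2.46 (1.74 to 3.44), and 2.11 (1.39 to 3.14) without the 5 richest cells. Under chow the next cluster, the mature dendritic cell-like one, held 15.4 CPM (5.65 to 33.5) and overlapped. Under the ketogenic diet the next, the cDC2-like one, held 17.4 CPM and did not overlap. Oasl2 was also seen in 10 of 170 ketogenic γδ T-like cells, with 11 UMIs, 16.1 CPM (8.05 to 28.8), against 0 UMIs in 59 chow cells, which allows up to 15.8 CPM. At this depth the libraries could not be told apart.

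Rsad2 encodes viperin, an enzyme that makes a chain-ending nucleotide against viral copying. Its macrophage-like level was 21.7 CPM (17.8 to 26.1) with chow and 59.3 CPM (44.5 to 77.6) with the ketogenic diet, a ratio of 2.74 (1.94 to 3.84). The richest chow cell alone held 31 of the 110 chow UMIs. Without the 5 cells richest in Rsad2 of each library the ratio was 1.73 (0.883 to 3.20).

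**Figure D3:**
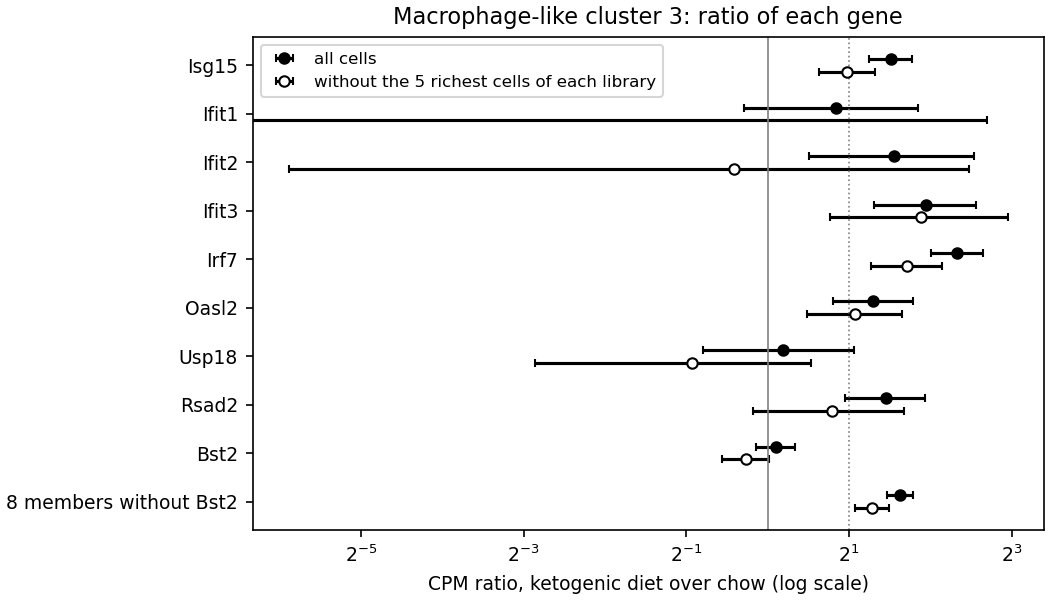
Ratio of CPM under the ketogenic diet over chow (horizontal axis, log scale) for each gene in the macrophage-like cluster, with 95% conditional intervals, over all cells (filled) and without the 5 cells of each library richest in that gene (open). Irf7 and Ifit3 lie farthest to the right and Bst2 lies at 1; Ifit1 has no open point because no ketogenic UMI is left. The dotted line marks 2-fold.

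Bst2 encodes tetherin, which holds budding viruses on the cell surface. It was detected more widely than the other 8 genes, in 40.5% of chow cells and 33.5% of ketogenic cells. In the macrophage-like cluster it held 177 CPM (165 to 189) and 189 CPM (162 to 220), a ratio of 1.07 (0.903 to 1.26), and 0.832 (0.680 to 1.01) without the 5 richest cells. It was highest in the cDC2-like cluster, at 467 CPM in each library, with a ratio of 0.999 (0.919 to 1.09). There 21 chow and 30 ketogenic cells with at least 3 summed UMIs of Siglech, Ccr9, Klk1, Cox6a2 and Pacsin1, markers of plasmacytoid dendritic cells, held 42.5% and 52.5% of the cluster's Bst2 UMIs. Their Bst2 level was 4601 CPM (4180 to 5052) with chow and 3702 CPM (3428 to 3992) with the ketogenic diet, against 281 and 238 CPM in the remaining cells of the cluster. Irf7 was likewise higher in those cells, at 221 CPM (137 to 337) and 137 CPM (88.5 to 202), against 22.7 and 24.8 CPM. Isg15 had 14 UMIs in the plasmacytoid marker cells with chow, all in 5 or fewer cells, but only 1 UMI in those of the ketogenic library.

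Most cells held no UMI of the induced genes, and a few held many. Over all clusters, 74.7% of chow cells and 70.1% of ketogenic cells had no UMI of the 8 genes, and 0.897% and 0.953% had 8 or more. Ifit1 was detected in 45 chow and 78 ketogenic cells and Rsad2 in 75 and 63, where 1% of each library is 45 and 56 cells. Isg15 was detected in 651 and 979 cells, and the richest 1% of cells held 36.0% and 28.4% of its UMIs. For Bst2, detected in 1806 and 1861 cells, the shares were 20.3% and 27.5%. The richest chow cell, macrophage-like, had 84 UMIs of the 8 genes among 5655 and detected all 8. The richest ketogenic cell, in the same cluster, had 84 among 10116, of which 37 were Isg15 and 28 Irf7. Of the 10 richest cells of each library, none carried a barcode shared between the libraries.

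Detection of 1 gene was compared between cells with and without a UMI of another, and the pairs differed widely. Among the 48 chow cells with an Ifit3 UMI, 62.5% had Isg15 and 52.1% had Irf7, against 14.1% and 6.89% of cells without Ifit3. The 74 ketogenic cells with Ifit3 gave 66.2% and 52.7%, against 17.0% and 9.08%. Usp18 and Isg15 made a weaker pair: of ketogenic cells with Usp18 26.4% had Isg15, against 17.3% of the others. Of ketogenic cells with Ifit2, 11.6% had Ifit1, against 1.24%. That share is low, as few cells had Ifit1, but its contrast with the other cells is wide. Cells with Ifit3 were also deeper, with a median of 5446 UMIs against 3512 under chow and 6028 against 3454 under the ketogenic diet, and the part of depth in these shares was not tested. Bst2 was detected in 83.3% and 71.6% of the cells with Ifit3, against 40.05% and 33.0% of the others.

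Thinned to 1000 UMIs a cell, 35 of 4458 chow cells (0.785%, exact binomial interval 0.547 to 1.09) and 41 of 5559 ketogenic cells (0.738%, 0.530 to 0.999) kept at least 3 UMIs of the 8 genes and are called rich cells here, a range of a sum and not a cell type. The counts are expected numbers rounded to whole cells. In the macrophage-like cluster they were 16 of 859 (1.86%, 1.07 to 3.01) under chow and 8 of 145 (5.52%, 2.41 to 10.6) under the ketogenic diet. Unthinned, 7.92% and 23.4% of these cells had at least 3 UMIs. The B and plasma cell-like cluster gave 0 of 82 and 0 of 245 rich cells, which allows shares of up to 3.66% and 1.22%. Over all clusters the intervals of the libraries overlapped, and in cluster 3 the ratio of the unrounded expected shares, 1.81% and 5.27%, was 2.91 (1.10 to 7.34). That interval was computed from the rounded numbers, 16 of 859 and 8 of 145.

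The macrophage-like difference was present with and without its richest cells. The 5 richest cells held 28.0% of the chow UMIs and 46.0% of the ketogenic UMIs of the 8 genes, and without them the levels were 135 and 330 CPM, a ratio of 2.44 (2.11 to 2.81). Of all cells in the cluster this is 0.582% with chow but 3.45% with the ketogenic diet. When the same share, the richest 5% of cells, was left out of each library, the ratio was 3.68 (3.10 to 4.38). UMIs of any of the 8 genes were found in 33.4% of chow and 55.2% of ketogenic cells of the cluster.

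The cDC1-like cluster differed in the other direction only through few cells. The 8 genes held 106 CPM (93.3 to 120) with chow and 51.7 CPM (44.4 to 59.8) with the ketogenic diet, a ratio of 0.489 (0.402 to 0.593). In this cluster 2 chow cells, with 76 and 68 of the cluster's 258 UMIs, each detected all 8 genes. Without the 5 richest cells of each library, which held 63.2% of the chow UMIs, the levels were 39.7 and 41.9 CPM, a ratio of 1.05 (0.808 to 1.38). Isg15, the gene called lower, held 36.1 and 11.5 CPM, a ratio of 0.318 (0.213 to 0.468), and 0.651 (0.371 to 1.14) without the 5 cells richest in it. No ketogenic cell of this cluster held more than 14 UMIs of the 8 genes.

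**Figure D4:**
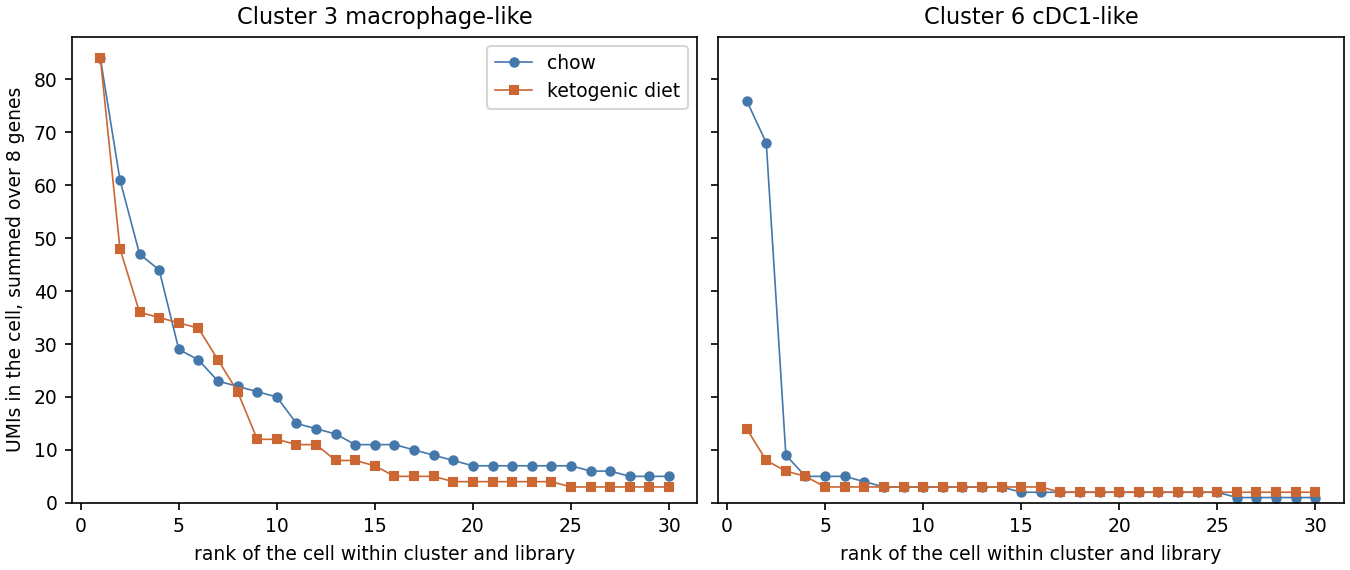
UMIs of the 8 genes other than Bst2 in single cells (vertical axis), for the 30 richest cells of each library by rank (horizontal axis), in the macrophage-like cluster (left) and the cDC1-like cluster (right). Both libraries start at 84 UMIs on the left, while on the right the 2 chow cells with 76 and 68 UMIs stand far above all others.

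Cells of cluster 3 were split by C1qa, C1qb and C1qc, complement genes of tissue macrophages. Cells with at least 3 summed C1q UMIs numbered 299 (chow) and 32 (ketogenic), and the 8 genes held 90.1 and 449 CPM there, a ratio of 4.98 (3.88 to 6.37), with 76.1% of the ketogenic UMIs in 5 cells. The 560 chow and 113 ketogenic cells without them held 245 and 624 CPM, a ratio of 2.55 (2.26 to 2.88). Irf7 was higher in both, with ratios of 9.09 (5.51 to 15.1) and 4.004 (3.10 to 5.16), though 5 cells held 86.5% of the 37 Irf7 UMIs in the ketogenic C1q cells and 58.3% of the 115 in the others. The 5 neutrophil markers summed to 301 CPM in the chow cells of the cluster and 58.2 CPM in the ketogenic ones, where Retnlg was at 0, and the 10 T cell markers summed to 143 and 271 CPM, with Cd8a at 0 in the ketogenic cells. In the 5 cells of each library richest in the 8 genes, neutrophil markers were at 75.6 and 20.2 CPM. T cell markers were at 189 and 223 CPM there. Plasmacytoid markers summed to 49.4 and 48.1 CPM in the cluster, and to 227 and 162 CPM, from 6 and 8 UMIs, in those cells. Plasma cell markers were at 282 and 221 CPM, and at 416 and 304 CPM in those cells. B cell markers were at 18.7 and 32.5 CPM, and at 37.8 and 60.7 CPM. The part of these markers in the result was not tested.

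The macrophage-like cluster was smaller in the ketogenic library, and levels over all cells differed from levels at equal composition. As captured, the 8 genes held 122 CPM (chow) and 136 CPM (ketogenic), a ratio of 1.12 (1.06 to 1.18). When both libraries were given the same mix of clusters, the average of their cell shares, the levels were 126 and 174 CPM, a ratio of 1.38 (1.29 to 1.47). Oasl2 was lower as captured, with a ratio of 0.669 (0.532 to 0.840), and higher at equal composition, at 1.89 (1.43 to 2.49). Rsad2 did the same, with 0.615 (0.485 to 0.780) and 1.49 (1.11 to 1.99). At equal composition Ifit3, with a ratio of 2.01 (1.47 to 2.74), was the only one of the 9 genes past 2-fold higher, against 1.59% of 11380 genes, and 0 were lower, against 1.61%. Bst2 was below 1 both ways, at 0.843 (0.805 to 0.883) as captured and 0.869 (0.822 to 0.920) at equal composition.

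**Figure D5:**
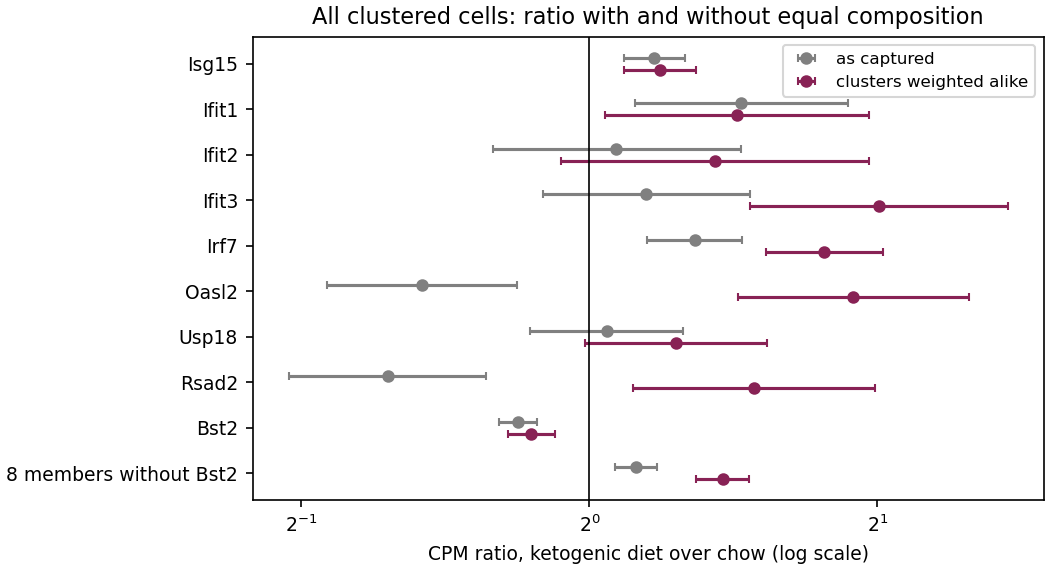
Ratio of CPM under the ketogenic diet over chow (horizontal axis, log scale) over all clustered cells, for each gene and the sum of 8, as captured (grey) and with every cluster weighted alike in both libraries (purple); bars are 95% intervals for counting error. Oasl2 and Rsad2 lie left of 1 as captured and right of it at equal composition.

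The rest of the pathway was read from lists that hold none of the genes above except Usp18, a negative regulator. Among ligands, the 4 Ifna genes on the list, Ifne, Ifnl2 and Ifnl3 had 0 UMIs in both libraries, which allows up to 0.141 CPM in the chow library and 0.116 CPM in the ketogenic library. Ifnb1 had 8 UMIs in 3 chow cells, 6 of them in cluster 8, and 0 in the ketogenic library. Ifng, the type II interferon of NK and T cells, had 421 UMIs (19.7 CPM) in 309 chow cells and 1414 (54.7 CPM) in 784 ketogenic cells. Its summed UMIs were highest in the NK-like cluster, at 103 and 122 CPM. At equal composition its levels were 40.1 and 55.9 CPM.

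In the macrophage-like cluster, 1 of 5 receptor genes was called higher, where 3.19% of all genes were: Ifngr2, a chain of the interferon-gamma receptor, at 95.9 and 204 CPM. The type I receptor chains Ifnar1 and Ifnar2 held 64.6 and 85.1 CPM, and 85.7 and 140 CPM. Among signalling genes Irf8, a factor of myeloid development, was higher, at 53.2 and 123 CPM, with a ratio of 2.32 (1.84 to 2.90). Stat2 and Irf9, which act downstream of the type I receptor, had ratios of 1.01 (0.412 to 2.17) and 1.21 (0.801 to 1.79). Of 8 sensors of nucleic acid, Zbp1, with a ratio of 3.48 (2.82 to 4.29), and Dhx58, with 2.47 (1.44 to 4.10), were higher, against the same 3.19%. Of 6 negative regulators 0 passed: Ptpn6 came closest, at 1.95 (1.68 to 2.26).

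Other type I interferon-stimulated genes were counted next. Of 36 at the minimum in the macrophage-like cluster, 13 were higher and 0 lower, against 3.19% and 4.53% of all genes, with a median log2 ratio of 0.91 against 0.04. The 4 with the largest change were Phf11d, at 11.8 and 51.5 CPM, a ratio of 4.36 (2.90 to 6.51), Rtp4, a chaperone of receptors, at 38.2 and 138 CPM, Parp12, at 12.2 and 41.4 CPM, and Ifi205, a DNA-binding protein, at 31.7 and 106 CPM. Of 8 genes induced mostly by interferon-gamma, 4 were higher: Gbp2, a GTPase that attacks vacuoles of microbes, at 21.9 and 88.5 CPM, with a ratio of 4.05 (2.99 to 5.45), Ifi47 with 3.52 (2.59 to 4.75), Igtp with 2.73 (1.60 to 4.53) and Irgm1 with 2.49 (1.69 to 3.61). Without the 5 cells of each library with the most UMIs of the 8 genes, 8 of 35 type I genes and 4 of 8 interferon-gamma genes were past the fold, against 3.05% of 6798 genes. At equal composition over all clusters, 2 of 47 type I genes, Ifit3b and Rtp4, and 1 of 16 interferon-gamma genes, Cxcl9, were past the fold, and 0 were lower. The shares over all genes there were 1.59% and 1.61%, and nothing is read from list counts of 2 and 1.

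The lists were also counted in the cDC1-like and cDC2-like clusters, and not in the mature dendritic cell-like one. In the cDC2-like cluster 0 of 30 type I genes were higher or lower (background 2.19% and 1.34%), with a median log2 ratio of -0.08, while Irf8, with a ratio of 2.17 (1.85 to 2.55), and Socs1, an inhibitor of the receptor kinases, with 2.01 (1.22 to 3.42), passed the fold. In the cDC1-like cluster 0 of 28 were higher, against 1.46%, or lower, with a median log2 ratio of -0.09; Cxcl10, a chemokine, came closest, at 30.7 and 15.5 CPM, a ratio of 0.504 (0.349 to 0.725).

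Across the 26 pairs of cluster and library, the genes whose level followed the sum of the 8 most closely, by Spearman's rho of log2(CPM + 20) over 10305 genes, were Xaf1 (0.83), Arl4c, Pyhin1, Parp14, Nrbp1, Clec2d, Tmem173, Smurf1, Lfng and Rap2b (0.70). The points share libraries, depth and lineage, so this is a description. Xaf1 and Parp14 are on the list of type I genes and Tmem173, the DNA-sensing adaptor STING, on that of sensors. Within the chow library alone 4 of these 10 were among the first 10, and within the ketogenic library 2. The single genes followed their own sum with rho from 0.32 for Oasl2 to 0.79 for Isg15.

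What cells with many of these UMIs share was read within clusters. In the 8 clusters with enough of them, 164 cells (66 chow, 98 ketogenic) had at least 5 UMIs of the 8 genes. Compared with other cells of their cluster and library, the highest ratios among 10831 genes were those of Ifit3b, Oasl1, Cmpk2, Oas3, Ifit1bl1, Rtp4, Pydc4, Mx1, Slfn4 and Isg20, of which 8 are on the lists above. Ifit3b, the near copy of Ifit3, had 50 UMIs where the rate of the other cells gives 0.229. Of the other type I genes 42 of 46 were at least 2-fold higher, against 299 of all 10831 genes, with a median ratio of 4.37, and of the interferon-gamma genes 10 of 15, with a median of 3.14. The cells were chosen by the 8 genes, so these ratios are a description with no test. In the ketogenic macrophage-like cluster such cells had a median of 7493 UMIs against 5408 in the others, and under chow 5428 against 5550.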

How the data were processed

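Single cells were captured by the standard 10x protocol, per the labels, in 1 chow and 1 ketogenic library. The authors deposited filtered matrices of UMI counts per gene and cell, not normalized, and a table of cluster numbers at resolution 0.5. The submitters' processing notes name Cell Ranger, Seurat and mm10 with no version; the annotation and counting options are not given in the sources used here. All 9 genes and all lists were chosen with earlier results of these data known.

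Here counts were summed per cluster and library over clustered cells and divided by all UMIs of that cluster (CPM). A gene was called at a 2-fold CPM ratio with at least 50 UMIs over both libraries; log2 ratios had 0.5 added to each count. Rich cells were found after thinning to 1000 UMIs by the exact hypergeometric expectation. Cells were not filtered further, doublets were not called or removed, and free RNA was subtracted only in an alternative. Clusters were named from marker lists. One gene of the signalling list is not reported here. Beside the 9 genes, the text names up to 4 genes per pathway list by absolute log2 ratio, with genes that passed the fold or belong to the type I receptor complex added, the 10 most alike by rho and the 10 with the highest ratio in rich cells. A planned comparison of proteins was replaced, after seeing the files, by the share of 50-base stretches of GENCODE transcripts found in other genes. The ratio step was tested on simulated data. Python 3.11.15, numpy 2.4.6, scipy 1.17.1, pandas 2.3.3 and matplotlib 3.10.9 were used. Precision is limited by the counts, 21570910 UMIs in the chow and 26041785 in the ketogenic library.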

Additional observations from a re-analysis of the deposited data

Results flagged for a closer look

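In 6 clusters the summed level of the 8 genes other than Bst2 moved beyond counting error, and not in 1 direction. The log2 ratio of the ketogenic over the chow library was 1.63 in the macrophage-like cluster, 0.84 in the cycling cluster, 0.59 in the T-like cluster, 0.56 in the Treg-like cluster and 0.24 in the cDC2-like cluster, against -1.03 in the cDC1-like cluster. The difference between clusters was not tested, since each diet has 1 library. The cDC1-like value was 0.07 without the 5 richest cells of each library, so its sign rests on those cells. The Treg-like ratio spanned no change without the 5 richest cells, at 1.41 (0.995 to 2.03), and without the richest 5%, at 1.19 (0.808 to 1.78). The cDC2-like ratio did so without the richest 5%, at 1.16 (0.915 to 1.46), and was 1.37 (1.13 to 1.67) without 5 cells.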

How the results depend on the processing

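Summed over the 8 genes, the macrophage-like log2 ratio was 1.29 without the 5 richest cells of each library, 1.12 as a mean over cells of their own CPM and 1.88 without the richest 5% of cells. That last alternative was added after seeing the data; it turned the sign in 5 clusters, in cluster 8 from a ratio of 0.955 to 1.49 (0.615 to 3.12) and on the log2 scale from -0.07 to 0.14 in cluster 0, -0.18 to 0.17 in cluster 1, -0.43 to 0.76 in cluster 12 and -1.03 to 0.24 in cluster 6, where the sign also turned, to 0.074, without 5 cells. Cluster 0 gave 0.20 with only cells of at least 3000 UMIs, and cluster 12 gave 0.89 without 5 cells and 0.11 as a mean over cells. At equal composition the sum gave 0.32 as a mean over cells, and 0.16 with no weights and 0.16 over all cells; Oasl2 reversed to -0.58 and -0.60 there and Rsad2 to -0.70 and -0.70. The 5 genes higher in cluster 3 became 2 without 5 cells, where Irf7 and Oasl2 remain, Isg15 has a ratio of 1.98, Rsad2 1.73, and Ifit3, at 3.70, falls under 50 UMIs, and 3 as a mean over cells. The 1 gene lower in cluster 6 became 0 without 5 cells and 3 when 20 UMIs sufficed. The share of all genes at 20 UMIs was not counted, so nothing is read from that 3. The added genes, Ifit2 and Ifit3, had their 17 and 22 chow UMIs in 4 cells each. Of the 10 genes most alike, 4 and 2 were among the first 10 within the chow and ketogenic libraries. The 13 type I genes higher in cluster 3 became 8 without 5 cells. Of 149 alternative values of the main results, 128 stayed within counting error or 1.5 times and 19 moved. The remaining 2, both in cluster 6, reversed a value that lay beyond counting error. Of 126 alternative values of the other results, 104 stayed, 18 moved and 4 reversed. The cause was not tested. No paired analysis was possible because each diet has 1 library. Depth limits the calls: 39 of 117 pairs of gene and cluster reached 50 UMIs.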

Other observations

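Cells that the deposited table puts in no cluster, 87 under chow and 55 under the ketogenic diet, held 99.0 and 85.4 CPM of the 8 genes, a ratio of 0.863 (0.416 to 1.74).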
